A study of Mus musculus with 8 samples.

Results

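The genes for the subunits of the proteasome, the barrel-shaped protease that degrades ubiquitin-tagged proteins, were examined in livers of Fah-/- mice. Members were the rows of the expression table whose symbol is Psma, Psmb, Psmc, Psmd, Psme, Psmf or Psmg followed by a number. Of 22504 genes in the table, 48 matched, and 47 of them reached an FPKM (read density scaled for transcript length and library size) of 1 in at least 2 of the 8 samples. The 48th, Psmb11, a catalytic subunit made in the thymus, was at or below 0.0203 FPKM in every sample. The members were 8 genes of the 20S alpha ring, 7 constitutive and 3 immunoproteasome genes of the beta ring, 6 ATPases and 11 other subunits of the 19S cap, 4 activator subunits, 1 inhibitor and 7 assembly chaperones.

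All 8 samples came from Fah-/- mice of strain 129S4, which carry a loss of fumarylacetoacetate hydrolase in the tyrosine pathway and are kept well by the drug NTBC, given at 7.5 mg/L in the drinking water. Moderate chronic liver injury (MCLI) was induced by cutting NTBC to 2.5% of that dose, and severe acute liver injury (SALI) by withdrawing it. The 3 groups were liver after 8 weeks of MCLI (C 8w, here chronic injury, replicates 1 to 3), liver given 4 weeks of SALI on top of 8 weeks of MCLI (C 8w + A 4w, here severe injury, samples C096, C097 and C098, called replicates 1 to 3 in accession order because the labels number none), and tumor after 12 weeks of MCLI (C 12w, replicates 2 and 3). No uninjured mice were part of the comparison, and the ages of the mice were not given in the sources used here. By the study's description, the samples are individual animals.

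In the proteasome, paired rings of alpha subunits guard the entrance to a chamber formed by paired rings of beta subunits, of which Psmb5, Psmb6 and Psmb7 carry the constitutive catalytic sites. The 19S cap, with its ring of ATPases, recognises ubiquitin chains, unfolds the substrate and feeds it into the core. Interferon signalling exchanges the catalytic subunits for Psmb8, Psmb9 and Psmb10 and adds the Psme1 and Psme2 activator, which changes the peptides made for antigen presentation, and in liver this form is most abundant in immune cells.

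Whole-series features bear on the reading. The sample names fall into 2 series that coincide with the groups: all 5 chronic injury and tumor samples have names beginning with FT and all 3 severe injury samples names beginning with C09, so the naming series and SALI cannot be told apart. The hepatocyte gene Alb was listed at 0 in all 5 samples of the first series and between 12946 and 16950 FPKM in the second, whereas the hepatocyte factor Hnf4a lay between 81.2 and 104 FPKM in all 8. Fah was between 15.6 and 16.8 FPKM in chronic injury, between 13.5 and 14.4 in tumor and between 5.02 and 6.36 in severe injury, and without wild-type mice it checks no label. The protocol text in the labels speaks of retina, but 7 of 8 retina markers were at or below 0.1 FPKM in every sample, the exception being Gnat1 at 1.95 to 3.57 FPKM. In severe injury, replicate 2 stood apart in immune markers. Its 5 Kupffer cell markers summed to 268 FPKM, against 89.9 and 67.8 in replicates 1 and 3. Its 18 leukocyte markers summed to 208 FPKM, against 59.5 and 68.1.

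Several members share stretches of sequence with other genes, most of them processed pseudogenes, so a read from such a stretch matches more than 1 gene. For each member, the share of its transcripts' 50-base windows that also occur in a gene at another locus was computed from GENCODE M21. It exceeded 2% for 12 of the 47 members: Psma2, Psma3, Psma4, Psma5, Psmb3, Psmb5, Psmc1, Psmc2, Psmd2, Psmd11, Psme1 and Psme2. The sequences that follow are shown because in each pair 90 bases of a member's coding sequence run identical for over 50 bases to a copy that has its own row in the table, with the bases that differ in capitals. Psma5 (GRCm38, plus strand, chr3:108257282-108261751, across the junction of exons 1 and 2 of 9) and Gm8394, a processed pseudogene (plus strand, chr10:85313574-85313663), differ at 2 bases.
Psma5: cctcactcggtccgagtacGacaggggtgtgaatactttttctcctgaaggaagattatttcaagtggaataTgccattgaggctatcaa
Gm8394: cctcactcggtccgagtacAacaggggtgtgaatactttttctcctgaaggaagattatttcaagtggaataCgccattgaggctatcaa
Psmd2 (plus strand, chr16:20662658-20663069, across the junction of exons 20 and 21, the last) and Gm5422, a transcribed processed pseudogene (plus strand, chr10:31250613-31250795), differ at 6 bases, all of them within the end of the stretch.
Psmd2: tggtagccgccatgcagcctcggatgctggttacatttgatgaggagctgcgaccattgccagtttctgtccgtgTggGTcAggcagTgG
Gm5422: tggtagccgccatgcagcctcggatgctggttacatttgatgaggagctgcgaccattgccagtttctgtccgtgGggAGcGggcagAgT

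The first comparison, severe vs. chronic injury, asks what 4 weeks of SALI after MCLI added. By limma on log2(FPKM + 1) with Benjamini-Hochberg adjustment over 11007 genes, 19 of 47 members were higher in severe injury, 3 were lower and 25 did not pass an adjusted p of 0.05. Among all genes fitted, 25.6% were higher and 13.5% lower. Under median-ratio scaling, which moved the median of all genes from 0.13 to 0.01, 14 members were higher and 5 lower, and 2168 genes were higher and 2180 lower. Quantile normalization gave 14 members higher and 4 lower, and 1891 genes higher and 2426 lower. The median log2 fold change was 0.30 for the members and 0.13 for all genes, and the members' median was 0.15 under median-ratio scaling and 0.17 under quantile normalization. The 12 members with over 2% of sequence elsewhere gave 10 of the 19 rises, with a median log2 fold change of 1.22. The other 35 gave 9 rises and all 3 falls, with a median of 0.25 and a range from -1.23 to 0.66.

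A stricter split, which also counts sequence shared with overlapping neighbours, left 27 members at or below 2%. Of these, 7 were higher and 2 lower, where the 6757 genes meeting the same limit gave 22.3% higher and 13.5% lower. Members under this limit were therefore called higher at a rate near that of such genes in general. Their median log2 fold change was larger, at 0.25 against 0.11. Every member with a log2 fold change above 0.66 was among the 12 with copies elsewhere, and the part of shared sequence in these values was not tested.

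**Figure D1:**
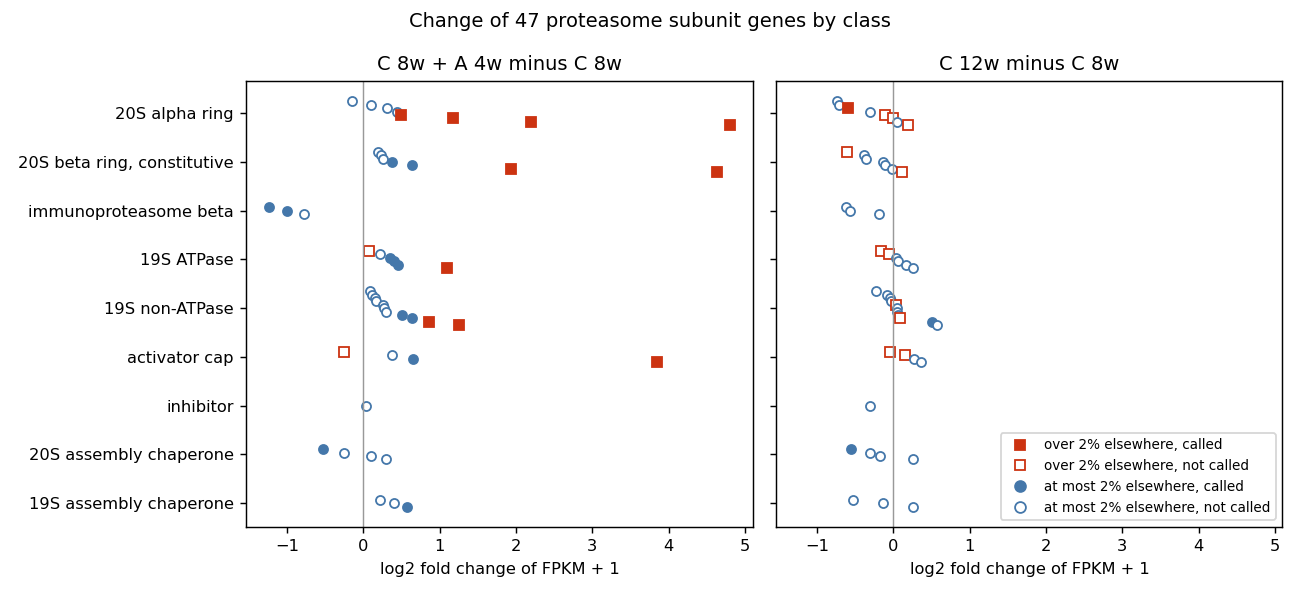
Log2 fold change of FPKM + 1 for each of 47 proteasome subunit genes (points, by subunit class on the vertical axis) in severe minus chronic injury (left) and tumor minus chronic injury (right). Squares are the 12 genes with over 2% of sequence shared with genes elsewhere and filled symbols passed an adjusted p of 0.05; on the left the squares reach 4.80, while no circle lies above 0.66.

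In the alpha ring, 4 of 8 genes rose in severe vs. chronic injury (25.6% among all genes fitted) and none of the other 4 passed the test. Psma5, an alpha subunit, read 1.15, 1.48 and 1.78 FPKM in chronic injury, 76.2, 63.5 and 63.4 in severe injury, and 1.99 and 1.64 in tumor. The severe injury samples lay far above all others, with a log2 fold change over chronic injury of 4.80 ± 0.13 (SE, limma, adjusted p = 3.35e-08). Psma3, an alpha subunit, read 3.40, 3.69 and 3.031 FPKM in chronic injury, 19.99, 18.9 and 18.3 in severe injury, and 2.51 and 1.37 in tumor. It rose by 2.20 ± 0.15 on the log2 scale (SE, limma, adjusted p = 1.39e-05), with no overlap of the groups. Psma4 (1.18 ± 0.11) and Psma2 (0.49 ± 0.11) rose by less. All 4 belong to the genes with copies elsewhere. Psma1, which has no such copy, was at 96.1 ± 5.41 FPKM in chronic injury and 86.7 ± 4.72 in severe injury (SD, n = 3 each), and Psma7 at 148 ± 12.2 and 160 ± 25.6. Psma8, an alpha subunit best known from testis, was at or below 3.24 FPKM in every sample.

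Among the constitutive beta genes, 4 of 7 rose (25.6% among all genes fitted) and the rest had positive changes that did not pass. Psmb3, a structural beta subunit, read 9.33, 8.39 and 9.35 FPKM in chronic injury, 297, 219 and 236 in severe injury, and 9.90 and 9.84 in tumor. Its rise over chronic injury, 4.64 ± 0.13 on the log2 scale (SE, limma, adjusted p = 3.54e-08), came with no overlap of the groups. Psmb5, the subunit with chymotrypsin-like activity, read 26.99, 28.5 and 37.4 FPKM in chronic injury, 150, 115 and 99.5 in severe injury, and 21.4 and 18.4 in tumor, a log2 rise over chronic injury of 1.93 ± 0.18 (SE, limma, adjusted p = 1.08e-04). Of its windows, 47.4% occur elsewhere, nearly all in the processed pseudogene Gm3375, which has no row in the expression table. Psmb4, a structural subunit with no copy elsewhere, read 146, 143 and 168 FPKM in chronic injury and 267, 212 and 235 in severe injury. The groups did not overlap and the log2 change was 0.64 ± 0.14 (SE, limma, adjusted p = 0.0076). Psmb7, the trypsin-like subunit, changed by 0.37 ± 0.12 (limma, adjusted p = 0.033), a call lost under all 4 other scalings and when chronic replicate 1 or 2, or severe replicate 1 or 2, was left out (adjusted p = 0.0764 to 0.12). Psmb6, the caspase-like subunit, was the most abundant core gene per length in all 8 samples, at 227 ± 15.1 FPKM in chronic injury and 261 ± 36.0 in severe injury (SD, n = 3 each), a difference that did not pass.

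The 14 alpha and beta genes Psma1 to Psma7 and Psmb1 to Psmb7 encode subunits present in equal number in each core, and FPKM is a level per length, so their spread can be read within a sample. The highest of the 14 was 135 to 199 times the lowest in the chronic injury samples and 83.1 to 132 times in tumor, but 12.8 to 15.1 times in severe injury. For the 8 of these genes with at most 2% of sequence elsewhere, the same quotient was 2.24 to 2.49, 1.85 to 3.91 and 2.64 to 3.50. The lowest of the 14 was Psma3 or Psma5 in each sample.

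**Figure D2:**
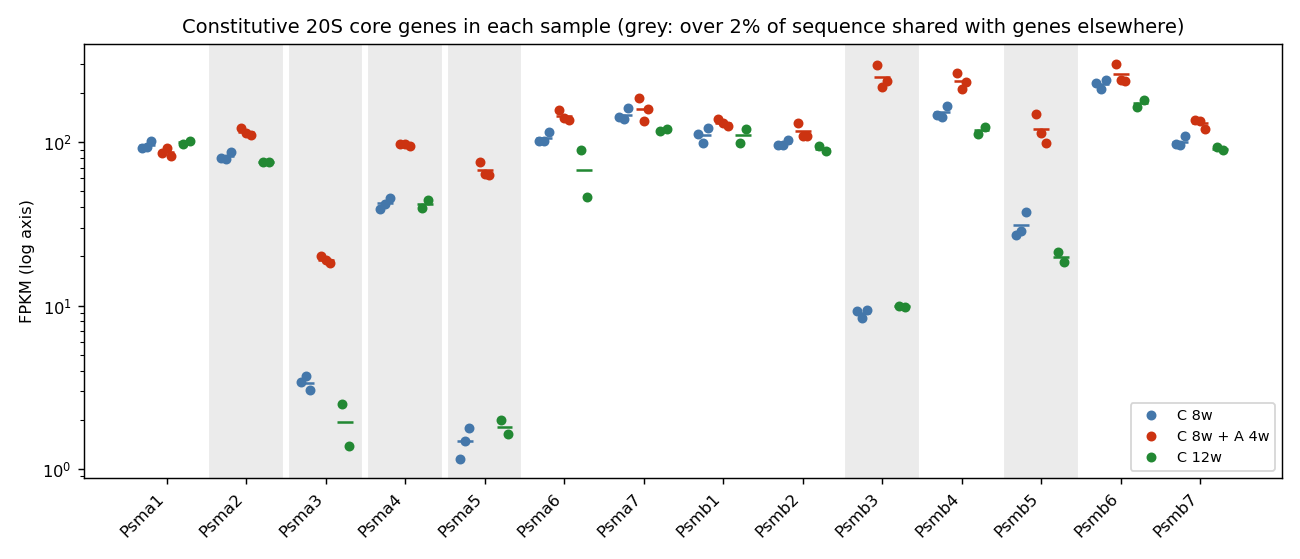
FPKM on a log axis of the 14 constitutive core genes in each sample (points, with group means as bars). In the 6 genes on grey, with over 2% of sequence shared with genes elsewhere, the severe injury (C 8w + A 4w) samples lie above all others. They also do so, by less, in Psma6, Psmb1, Psmb2, Psmb4 and Psmb7 on white, but not in Psma1, Psma7 or Psmb6. The 8 genes on white lie between 46.3 and 303 FPKM in every sample.

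In the 19S cap, 4 of 6 ATPase genes and 4 of 11 other subunit genes rose in severe vs. chronic injury (25.6% among all genes fitted), and none fell. Psmc1, an ATPase, read 32.8, 34.4 and 40.0 FPKM in chronic injury and 89.3, 69.8 and 73.3 in severe injury, a log2 change of 1.09 ± 0.13 (SE, limma, adjusted p = 4.61e-04). Psmd11, a scaffold subunit, read 16.2, 16.5 and 18.4 FPKM and 48.0, 38.4 and 40.1, a change of 1.26 ± 0.12 (SE, limma, adjusted p = 1.12e-04). Psmd2, the largest scaffold subunit together with Psmd1, read 40.6, 41.3 and 44.5 FPKM and 78.5, 76.9 and 75.9, a change of 0.86 ± 0.10 (SE, limma, adjusted p = 3.27e-04). These 3 genes have copies elsewhere and did not overlap between the groups. Psmc2, an ATPase of which 3.72% is shared elsewhere, was the cap gene with the smallest change, at 56.4 ± 1.67 and 59.6 ± 5.81 FPKM (SD, n = 3 each).

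Of the cap genes without copies elsewhere, Psmd12, a scaffold subunit, read 27.8, 28.6 and 29.2 FPKM in chronic injury and 43.4, 39.5 and 39.7 in severe injury (log2 change 0.50 ± 0.10, limma, adjusted p = 0.0055). The rises of the ATPases Psmc3 (0.40), Psmc5 (0.35) and Psmc6 (0.46) and of the subunit Psmd8 (0.64) passed the test but were lost under other settings. Under 4 other scalings, Psmc3, Psmc5 and Psmd8 lost their calls in 4 and Psmc6 in 3. Leaving out any 1 of the 6 samples compared ended the calls of Psmc5 and Psmd8 (Psmd8 adjusted p = 0.0546 to 0.140). That of Psmc6 ended without any of them but severe replicate 3 (0.0549 to 0.104), and that of Psmc3 without chronic replicate 1 or 2 or severe replicate 1. The ubiquitin receptor Psmd4 and the deubiquitinase Psmd14, which has the cap's metalloprotease site, were at 46.1 ± 2.57 and 47.03 ± 3.11 FPKM in chronic injury and at 52.0 ± 4.31 and 56.3 ± 1.92 in severe injury (SD, n = 3 each), and neither change passed.

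Of the activators, Psme1 and Psme2 form a ring that opens the core, Psme3 forms a nuclear one and Psme4 is a large single-chain activator. Psme2 read 4.10, 3.26 and 3.54 FPKM in chronic injury, 66.3, 66.4 and 63.2 in severe injury, and 3.88 and 4.46 in tumor. Severe injury did not overlap with the other groups, and the log2 change over chronic injury was 3.84 ± 0.11 (SE, limma, adjusted p = 3.43e-08). Its partner Psme1 did not pass, at 62.7 ± 4.29 FPKM in chronic injury and 52.8 ± 6.45 in severe injury (SD, n = 3 each). In chronic injury, Psme1 thus read 57.9 to 66.3 FPKM in samples where Psme2 read 3.26 to 4.10. Psme3 read 16.9, 21.1 and 17.7 FPKM in chronic injury and 32.1, 29.4 and 27.7 in severe injury, without overlap (log2 change 0.66 ± 0.12, limma, adjusted p = 0.0031). Psme4, at 24.7 ± 2.16 and 32.8 ± 6.06 FPKM, and the inhibitor Psmf1, at 14.5 ± 1.14 and 14.9 ± 1.39 (SD, n = 3 each), did not pass.

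For 4 of the members with copies, a copy above the FPKM floor has its own row, and in each pair the row of the copy moved the other way. Psme2b read 101, 104 and 122 FPKM in chronic injury and 22.2, 28.7 and 26.1 in severe injury (log2 change -2.05 ± 0.14, limma, adjusted p = 1.34e-05). The sum of Psme2 and Psme2b was 113 ± 11.2 FPKM in chronic injury, 91.0 ± 3.597 in severe injury (SD, n = 3 each), and 66.8 and 78.5 in the tumor samples, so the sum was lower in severe injury than in every chronic injury sample while Psme2 alone was higher. Gm8394 read 45.04, 48.0 and 56.0 FPKM in chronic injury and 10.3, 9.04 and 8.68 in severe injury, and its sum with Psma5 was 51.2 ± 5.99 and 77.0 ± 8.17 (SD, n = 3 each). FPKM is scaled by each gene's length, so such sums are not sums of reads. The sum of Psma5 and Gm8394 differed by far less than the 46.0-fold ratio of the mean FPKM of Psma5.

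Gm5422 read 4.52, 5.10 and 4.99 FPKM in chronic injury and 0.925, 0.930 and 0.597 in severe injury, and its sum with Psmd2, 47.03 ± 2.26 and 77.9 ± 1.48 (SD, n = 3 each), kept most of the difference. Gm4950, which holds 7.52% of the windows of Psmb3, read 30.8, 35.6 and 40.0 FPKM in chronic injury and 31.03, 23.0 and 22.6 in severe injury, with the groups overlapping (log2 change -0.46 ± 0.15, limma, adjusted p = 0.0404). Its sum with Psmb3, 44.5 ± 4.59 and 276 ± 45.3 (SD, n = 3 each), also kept the difference. However, the copy that holds 12.7% of the windows, AC114990.1, has no row in the expression table. The annotation behind the table's counting was not given in the sources used here, and how reads were divided between these genes and their copies was not tested.

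**Figure D3:**
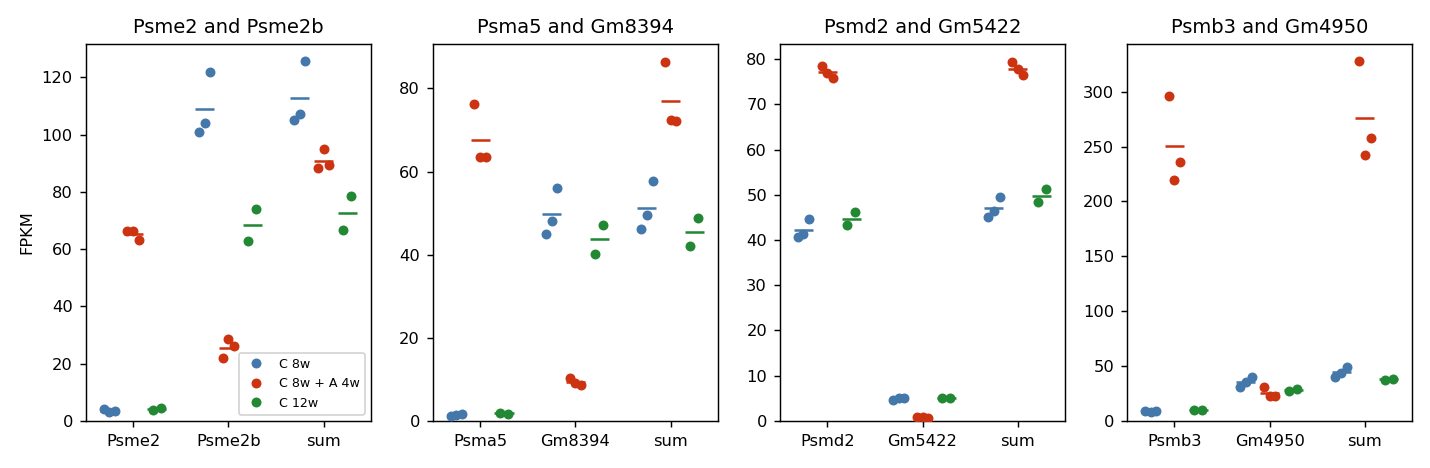
FPKM of 4 proteasome genes, of a copy of each with its own row in the table, and of their sum, in each sample (points, with group means as bars). Psme2 is high and Psme2b low in severe injury (C 8w + A 4w), and their sum lies between 66.8 and 126 FPKM in all 8 samples.

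Of the 3 immunoproteasome genes, 2 fell in severe vs. chronic injury and none rose, where 13.5% of all genes fitted were lower and 25.6% higher. Psmb10, the trypsin-like immune subunit, read 25.6, 28.6 and 29.6 FPKM in chronic injury, 8.13, 16.9 and 10.4 in severe injury, and 19.2 and 18.0 in tumor. It fell by 1.23 ± 0.22 on the log2 scale (SE, limma, adjusted p = 0.0031), without overlap between chronic injury and severe injury. Psmb9, which replaces Psmb6, read 6.42, 8.19 and 6.45 FPKM in chronic injury, 2.34, 4.27 and 2.62 in severe injury, and 4.84 and 7.38 in tumor. It fell by 1.00 ± 0.21 (limma, adjusted p = 0.0063), again without overlap. Psmb8, which replaces Psmb5, read 17.6, 20.3 and 23.1 FPKM in chronic injury, 8.34, 16.1 and 10.95 in severe injury, and 8.98 and 18.3 in tumor. Its log2 change over chronic injury, -0.78 ± 0.28, did not pass (limma, adjusted p = 0.058), although these groups did not overlap. Its adjusted p ran from 0.0178 to 0.177 over the alternative fits, being lowest without a tumor sample and highest without severe replicate 1, while that of Psmb9 stayed at or below 0.0283 and that of Psmb10 at or below 0.0149. None of the 3 has over 2% of its sequence elsewhere, but 11.9% of the windows of Psmb8 and 4.19% of those of Psmb9 also occur in some other gene, mostly Gm20496 (antisense) for Psmb8 and Tap1 for Psmb9, which overlap them.

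As a share of the constitutive gene it replaces, Psmb10 was at 26.1, 29.8 and 27.2% of Psmb7 in chronic injury, at 5.90, 12.6 and 8.67% in severe injury and at 20.6 and 20.2% in tumor. Psmb9 was at 2.79, 3.88 and 2.68% of Psmb6 in chronic injury, 0.775, 1.76 and 1.10% in severe injury and 2.93 and 4.08% in tumor. Both shares were lower in every severe injury sample than in any other sample. The share of Psmb8 to Psmb5, 65.2, 71.5 and 61.9% against 5.57, 14.03 and 11.01%, had the largest drop, but Psmb5 is one of the genes with a copy elsewhere.

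**Figure D4:**
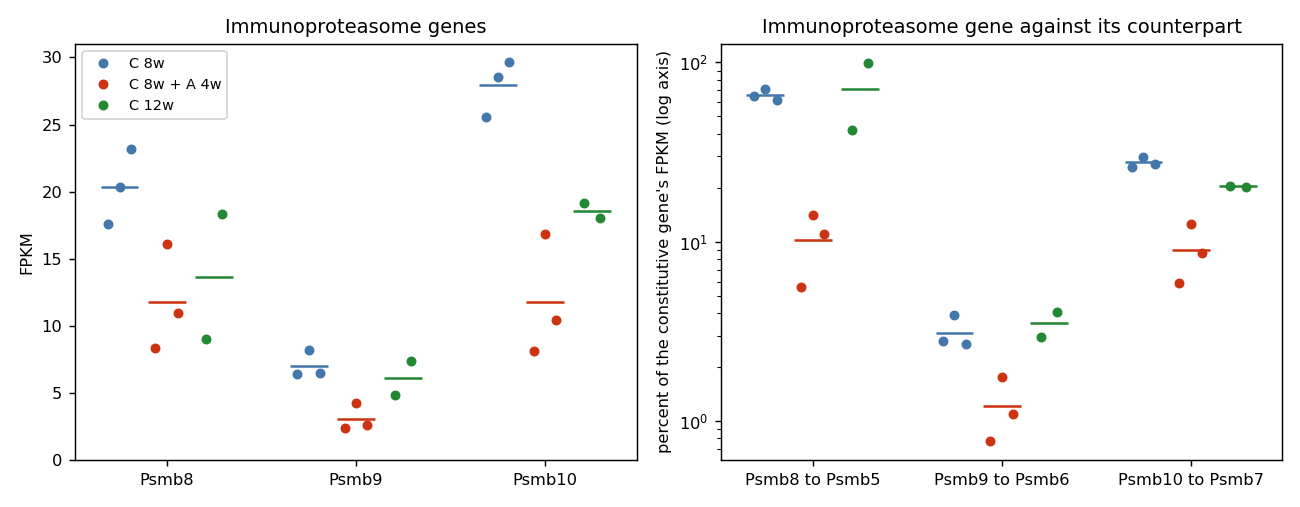
Left, FPKM of Psmb8, Psmb9 and Psmb10 in each sample (points, with group means as bars). Right, each as a percentage of the FPKM of its constitutive counterpart, on a log axis, where the 3 severe injury (C 8w + A 4w) samples lie below all 5 others in every pair.

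In all 3 genes the highest severe injury value was that of replicate 2, the sample with the highest immune marker sums. Without replicate 2, the changes over chronic injury were -1.01 for Psmb8, -1.20 for Psmb9 and -1.50 for Psmb10. All passed in that fit (limma, adjusted p = 0.0279, 0.00287 and 2.72e-04). Leaving out the highest value of the lower group had to enlarge each fall, so this fit is no separate test of the falls. Psmb8 did not pass with all 8 samples. The leukocyte marker sums ranged from 72.4 to 91.6 FPKM in chronic injury, 59.5 to 208 in severe injury and 109 to 111.2 in tumor, and the Kupffer sums from 102 to 126, 67.8 to 268 and 49.0 to 96.03. Of the 18 leukocyte markers 7 reached the floor, and the T and B cell markers Cd3e, Cd8a and Ms4a1 were at or below 0.549 FPKM. In the 2 severe injury samples other than replicate 2, both sums were below all chronic injury samples. Single markers did not all follow the sums: in replicate 1, Marco (16.5 FPKM against 0.986 to 4.33 in chronic injury), Vsig4 (15.3 against 14.2 to 14.5) and Cd68 (9.56 against 6.41 to 7.36) were above every chronic injury sample. In severe vs. chronic injury 0 of the 7 leukocyte and 0 of the 5 Kupffer markers fitted passed (limma, adjusted), and 0 did at an unadjusted p under 0.05. The part of immune cells in the immunoproteasome values was not tested. In bulk tissue, fewer cells of a type and less RNA per cell cannot be told apart. In a list of 11 interferon and antigen-loading genes, 10 reached the floor, 3 were lower in severe injury than in chronic injury and none was higher, against 13.5% lower and 25.6% higher among all genes fitted. B2m, the light chain of class I molecules, fell by 0.75 ± 0.20 on the log2 scale, and the interferon signalling genes Irf9 and Stat2 by 0.89 ± 0.24 and 0.81 ± 0.21 (limma, adjusted p = 0.0165, 0.0196 and 0.0152).

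Of the 7 assembly chaperones, 1 fell and 1 rose in severe vs. chronic injury, which is near the 13.5% lower and below the 25.6% higher among all genes fitted. Psmg1, which with Psmg2 guides alpha ring assembly, read 26.5, 25.8 and 29.3 FPKM in chronic injury, 19.4, 19.2 and 16.9 in severe injury and 16.1 and 20.5 in tumor. It was below the chronic injury samples in all 5 others, with log2 changes of -0.53 ± 0.12 and -0.55 ± 0.14 (limma, adjusted p = 0.0101 and 0.0271). Psmg2 to Psmg4 did not pass in either. Psmd5, a chaperone of the cap, rose from 17.7, 18.6 and 17.9 FPKM in chronic injury to 27.3, 27.4 and 27.3 in severe injury (log2 change 0.57 ± 0.10, limma, adjusted p = 0.0027). The cap chaperones Psmd9 and Psmd10 did not pass.

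The second comparison, tumor vs. chronic injury, sets the tumors against liver 4 weeks earlier on the same regimen. Of 47 members 1 was higher and 2 were lower, against 13.1% higher and 6.9% lower among all genes fitted, and the members' median log2 fold change was -0.05 against 0.12 for all genes. The sign and size of the members' median depended on the scaling: it was -0.19 under median-ratio scaling (0.01 for all genes), -0.21 when that scaling used only genes with at most 2% shared sequence, and 0.0467 under TPM scaling (0.23 for all genes). These 3 scalings called 1 member higher and 3 lower, 0 and 3, and 1 and 1, and median-ratio scaling called 1088 genes higher and 1162 lower. Psmd1, the scaffold subunit next to Psmd2, read 35.8, 40.3 and 35.1 FPKM in chronic injury and 49.7 and 57.0 in tumor (log2 change 0.51 ± 0.12, limma, adjusted p = 0.0234). The lower genes were Psmg1, given above, and Psma3 (-0.60 ± 0.17, adjusted p = 0.0400). Each of these calls was lost when a single sample was left out: Psmd1 without tumor replicate 3 or chronic replicate 1 or 3, Psmg1 without tumor replicate 2 or any chronic replicate (adjusted p = 0.0635 to 0.0917), and Psma3 without any single sample other than tumor replicate 2. None of the immunoproteasome genes passed, with log2 changes of -0.61 for Psmb8, -0.19 for Psmb9 and -0.56 for Psmb10.

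The 2 tumors differed from each other in several members. Psma6, an alpha subunit, read 89.3 and 46.3 FPKM in replicates 2 and 3, Psmd8 74.0 and 43.8, Psme1 43.4 and 84.2, and Psmb8 8.98 and 18.3. In chronic injury the same 4 genes spanned 102 to 115, 35.3 to 41.8, 57.9 to 66.3 and 17.6 to 23.1 FPKM. Neither Psma6 nor Psmd8 passed in tumor vs. chronic injury (limma, adjusted p = 0.0711 and 0.125).

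The third comparison, severe injury vs. tumor, shares its samples with both others. Here 20 of 47 members were higher in severe injury and 1 lower, against 18.1% higher and 16.1% lower among all genes fitted. Quantile normalization gave 16 members higher and 4 lower, and TPM scaling 15 higher and 2 lower, with 1303 of all genes higher and 2210 lower. Of the 27 members at or below 2% of shared sequence 7 were higher, where genes under the same limit gave 14.4% higher and 16.5% lower, and the median log2 fold changes were 0.24 and -0.03. The highest values were again those of Psma5 (4.61 ± 0.15), Psmb3 (4.52 ± 0.15), Psme2 (3.68 ± 0.12), Psma3 (2.80 ± 0.17) and Psmb5 (2.53 ± 0.20). Among genes without copies elsewhere, Psma6 (1.15 ± 0.25) and Psmb4 (1.00 ± 0.15) had the largest calls held under every left-out sample and scaling. Psmb4 read 112 and 125 FPKM in tumor, below every sample of the other groups. Psmb9, the 1 lower gene (-0.81 ± 0.23, limma, adjusted p = 0.0274), lost its call without tumor replicate 3 or severe replicate 1 or 3 (adjusted p = 0.0782 to 0.140).

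Genes that work with the proteasome but lie outside the naming rule were read from fixed lists. Of 17 partner genes listed, among them ubiquitin receptors and deubiquitinases, 14 were in the table, and 9 of these were higher and 1 lower in severe vs. chronic injury, against 25.6% higher and 13.5% lower among all genes fitted. Adrm1, a ubiquitin receptor of the cap with 25.7% of its windows elsewhere, went from 3.52 to 4.04 FPKM in chronic injury to 56.4 to 67.8 in severe injury (log2 change 3.72 ± 0.11, limma, adjusted p = 5.46e-08). In tumor vs. chronic injury, where 13.1% of all genes were higher, 1 partner passed, Akirin2, which carries proteasomes into the nucleus (0.51 ± 0.14, adjusted p = 0.0353).

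Of 14 regulators of proteasome genes 5 were higher in severe vs. chronic injury and none lower, where 25.6% of all genes fitted were higher and 13.5% lower. The 5 were Vcp, the ATPase that extracts ubiquitinated proteins (2.25 ± 0.11, 40.5% of windows elsewhere), the small Maf partners of Nfe2l1 and Nfe2l2, Maff (1.35 ± 0.11), Mafk (1.04 ± 0.13) and Mafg (0.67), and Nfyc, a subunit of the CCAAT-binding factor (1.02 ± 0.11, 22.2% elsewhere). The factors Nfe2l1 and Nfe2l2 did not pass, with log2 changes of -0.07 and 0.38. Of 6 genes for ubiquitin and its activating enzymes, 2 were higher and 1 was lower, beside the same shares of all genes. Rps27a, which encodes ubiquitin fused to a ribosomal protein, rose (log2 change 6.16 ± 0.14). Of its windows 20.9% occur in genes elsewhere, and the part of this in its value was not tested.

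Promoter windows from RefSeq (GRCm38.p6, 250 bases before to 50 after a gene's start) were at hand for 40 of the 48 genes. An antioxidant response element, the site of Nfe2l1 and Nfe2l2 (TGACNNNGC or TGAGNNNGC, either strand), was in 39.5% of the members' 43 windows and in 27.8% of all 32851. The CCAAT letters were in 32.6 and 37.4%, the interferon element GAAANNGAA in 16.3 and 8.56%, and the gamma-interferon site TTCNNNGAA in 6.98 and 8.30%. The interferon element was in 7 member windows, those of Psmb3, Psmb4, Psmc2, Psmd4, Psmd9, Psme1 and Psmg4. Psmb8, Psmb9 and Psmb10 were not among these genes. All such counts are matches of letters, not sites shown to be bound. The 250 bases before the starts of Psmb5 (minus strand, chr14:54617996-54618245, antioxidant element in capitals, 47 bases before the start) and Psmb8 (plus strand, chr17:34197945-34198194, gamma-interferon site in capitals, 97 bases before the start) are shown because Psmb8 takes the place of Psmb5 in the immunoproteasome.
Psmb5: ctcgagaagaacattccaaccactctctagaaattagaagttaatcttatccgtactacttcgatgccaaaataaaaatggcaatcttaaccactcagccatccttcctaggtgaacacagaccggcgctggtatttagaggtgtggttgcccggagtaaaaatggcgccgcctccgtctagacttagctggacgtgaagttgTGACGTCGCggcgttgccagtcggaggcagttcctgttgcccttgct
Psmb8: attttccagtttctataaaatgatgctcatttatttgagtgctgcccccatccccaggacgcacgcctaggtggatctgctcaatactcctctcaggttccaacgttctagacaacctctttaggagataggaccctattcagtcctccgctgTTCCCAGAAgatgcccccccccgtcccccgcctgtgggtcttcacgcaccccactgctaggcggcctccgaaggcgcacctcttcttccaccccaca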

How the data were processed

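Gene expression was measured by RNA-seq of 8 Fah-/- mouse samples. The authors deposited 1 table of FPKM values for 22504 Ensembl gene IDs. The submitters' processing notes name Bowtie 0.12.2 and mm8; the counting tool and its annotation are not given in the sources used here. Read counts are not part of the table and absolute depth is unknown, so no counting interval is given, and the values were not treated as counts. No column was unassigned.

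IDs were matched to symbols for 22314 genes. Genes reaching an FPKM of 1 in 2 or more samples were kept (11007 genes). Values were analysed as log2(FPKM + 1), so fold changes of low genes are understated, in 1 limma 3.58.1 fit (R 4.3.3) of all 3 groups, with a trended empirical Bayes variance, two-sided tests, Benjamini-Hochberg adjustment and a threshold of 0.05. The fit was tested on simulated data. Shared sequence was counted with Python 3.11.15 as 50-base windows on both strands of GENCODE M21 transcripts.

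The members and lists were chosen with earlier results of these data known. Named genes were Psmb5 to Psmb10, Psme1 to Psme4, the largest rise and fall of each other class in the comparisons with C 8w, members whose group means differed over 10-fold, and the extreme called genes of each list; others were chosen after their values were seen. Replicate numbers 2 and 3 of C 8w and C 12w belong to tissue taken at different times and did not deviate together, so no block was used. Alternatives covered the pseudocount, floor, scaling, variance trend, samples and shared sequence. Some members of the gene lists and 1 sequence pair are not reported here.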

Additional observations from a re-analysis of the deposited data

How the results depend on the processing

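The limits are the 2 or 3 samples per group, the unknown depth, the coincidence of naming series and SALI, and shared sequence. Of the members called, 17 of 22 in C 8w + A 4w vs. C 8w, 0 of 3 in C 12w vs. C 8w and 14 of 21 in C 8w + A 4w vs. C 12w kept their call in all 8 fits that left out 1 sample and under all 4 scalings. Leaving out 1 sample gave 0 to 5 calls in C 12w vs. C 8w: 0 without C 8w replicate 1 or 3, 1 without C 8w replicate 2 and 5 without C 8w + A 4w replicate 1. Median-ratio scaling moved the median of all genes in C 8w + A 4w vs. C 8w from 0.13 to 0.01 on the log2 scale, and the members' calls from 19 higher and 3 lower to 14 higher and 5 lower, and the split of all genes from 2814 higher and 1491 lower to 2168 and 2180. The members' median there became 0.15 under median-ratio scaling, 0.17 under quantile normalization and 0.18 under median-ratio scaling over genes with at most 2% shared sequence. In C 12w vs. C 8w it became -0.19 under median-ratio scaling, 0.0467 under TPM scaling and -0.21 under median-ratio scaling over genes with at most 2% shared sequence, and in C 8w + A 4w vs. C 12w 0.16 under TPM scaling and 0.085 under quantile normalization. Requiring an absolute log2 change of 1 or more left 9, 0 and 10 members called in the 3 comparisons, and fitting only genes with at most 2% shared sequence left 8, 1 and 7 of 27. The cause of these shifts was not tested. A replicate block over numbers 2 and 3 of C 8w and C 12w, whose deviations correlated at -0.18 over 11007 genes, left 0 members called by limma (7 at an unadjusted p under 0.05) and 169 genes. The crossed pairing, added after seeing the data, left 0 members (8 unadjusted) and 2 genes.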
